A study of Mus musculus with 4 samples.

Results

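The genes described here are 8 secreted inflammatory factors of stressed or senescent fibroblasts, namely the chemokines Cxcl1, Cxcl2, Cxcl12, Cxcl16, Ccl2, Ccl7 and Ccl8 and the cytokine Il6. They were taken by gene name from a table of 31247 genes, and each name matched 1 row. The counts come from RNA sequencing of mouse lung mesenchymal cells sorted for a PDGFRb-GFP reporter on postnatal day 7, which the sample titles call myofibroblasts. Cells of the conditional knockout (CKO) carried the reporter, Tbx4-rtTA with Tet-O-Cre, and Dnmt1-D/D alleles. Wild-type (WT) cells are labelled with the reporter alone. There were 2 CKO and 2 WT libraries, each from lungs of animals at the same age. They are named by genotype and a letter in column order, which pairs no libraries. Dnmt1 encodes the methyltransferase that copies DNA methylation to the new strand after replication. In background terms, Tbx4-rtTA acts in lung mesenchyme and lets Tet-O-Cre recombine loxP-flanked alleles under doxycycline, so cells outside that lineage keep Dnmt1. The PDGFRb-GFP reporter is active in pericytes and other mesenchymal cells as well as in myofibroblasts.

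Chemokines are small secreted proteins that guide leukocytes along concentration gradients through G protein-coupled receptors. CXC chemokines such as Cxcl1 and Cxcl2 recruit neutrophils through Cxcr2, and CC chemokines such as Ccl2 and Ccl7 recruit monocytes through Ccr2. Cxcl12 retains cells that carry Cxcr4, and Cxcl16 is a membrane-bound ligand of Cxcr6 that proteases can shed. Il6 signals through Il6ra and the shared chain Il6st to the transcription factor Stat3. In fibroblasts most of these genes are known targets of NF-kappaB, a transcription factor that tumour necrosis factor, interleukin 1 and Toll-like receptors activate, and they belong to the secretory programme of senescent cells.

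Total counted reads ranged from 23071657 to 26420648 per library. Genes with reads numbered 22237 in CKO A, 22532 in CKO B, 21883 in WT A and 27643 in WT B. What sets WT B apart in this was not tested. Dnmt1 lay at 78.1 and 29.5 CPM in CKO A and CKO B, against 144 and 115 CPM in WT A and WT B, where CPM is the read count relative to library size, scaled by the trimmed mean of M-values (TMM). CKO A therefore held 60.3% and CKO B 22.8% of the WT mean, and the test did not call Dnmt1 (log2 change -1.27 ± 0.57 (SE), edgeR quasi-likelihood test, adjusted p = 0.31). CKO A had 2494 reads of the Y-linked gene Ddx3y, and the other 3 libraries had 0. A leading number in the column headers is common to CKO A, CKO B and WT B but not WT A, and its meaning is not stated, so leaving out WT A gives the comparison within that number. Whether the replicates came from separate litters is not labelled, and the p-values rest on the variation among these 4 libraries alone.

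The region just before the start of Cxcl2, the gene with the greatest change among the tested members, is shown with those of its neighbour Cxcl1, of Il6 and of Cxcl12. RefSeq promoter sequences on GRCm38.p6 matched 5 of the 8 genes (Cxcl1, Cxcl2, Cxcl12, Ccl8 and Il6). Each run below is the 250 bases before the RefSeq start on the plus strand, 5′ to 3′, and capitals mark matches to an NF-kappaB motif. They lie at chr5:90903649-90903898 (Cxcl2), chr5:90890995-90891244 (Cxcl1), chr5:30012864-30013113 (Il6) and chr6:117168285-117168534 (Cxcl12).
Cxcl2: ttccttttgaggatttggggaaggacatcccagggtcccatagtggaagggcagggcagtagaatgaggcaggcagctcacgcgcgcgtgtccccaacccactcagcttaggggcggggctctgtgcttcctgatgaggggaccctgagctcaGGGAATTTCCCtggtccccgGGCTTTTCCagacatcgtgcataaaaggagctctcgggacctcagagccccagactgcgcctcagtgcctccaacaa
Cxcl1: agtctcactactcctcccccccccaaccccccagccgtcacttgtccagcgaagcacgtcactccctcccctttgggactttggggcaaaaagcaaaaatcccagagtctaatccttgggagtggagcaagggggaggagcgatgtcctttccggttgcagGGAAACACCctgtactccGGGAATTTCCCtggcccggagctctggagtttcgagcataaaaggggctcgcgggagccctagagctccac
Il6: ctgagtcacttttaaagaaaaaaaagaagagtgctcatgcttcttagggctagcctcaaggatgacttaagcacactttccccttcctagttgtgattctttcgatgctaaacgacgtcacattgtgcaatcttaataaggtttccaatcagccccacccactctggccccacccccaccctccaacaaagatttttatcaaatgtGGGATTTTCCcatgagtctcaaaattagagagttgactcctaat
Cxcl12: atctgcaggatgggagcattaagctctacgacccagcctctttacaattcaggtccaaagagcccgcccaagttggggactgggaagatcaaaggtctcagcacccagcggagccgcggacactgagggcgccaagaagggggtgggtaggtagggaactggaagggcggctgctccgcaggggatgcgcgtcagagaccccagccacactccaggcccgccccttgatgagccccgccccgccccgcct

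The NF-kappaB consensus was found in 3 of the 5 windows, those of Cxcl1, Cxcl2 and Il6, and in 3.9% of 32851 mouse promoter windows of the same length. Cxcl2 and Cxcl1 held the same site, GGGAATTTCC, beginning 97 bases before the RefSeq start in Cxcl2 and 71 in Cxcl1. Both windows run past the gene start in the GENCODE annotation (90903871 for Cxcl2 and 90891241 for Cxcl1), that of Cxcl2 further. These distances therefore depend on the start used. Il6 held GGGATTTTCC, beginning 44 bases before its start. All motifs were searched on both strands. The shorter form GGNNNTTCC was in 15.7% of all windows and added GGCTTTTCC in Cxcl2 and GGAAACACC in Cxcl1, and its other matches lay inside the consensus sites. TGANTCA, the AP-1 motif, was found in Il6 alone of the 5 (6.75% of all windows), and an interferon response motif, GAAA repeated after any 2 bases, in none of them (2.98% of all windows). CpG dinucleotides, the substrate of Dnmt1, numbered 14 in the window of Cxcl12, 10 in Cxcl1, 9 in Cxcl2, 3 in Il6 and 1 in Ccl8, against a median of 6 over all windows. A match describes letters in a window and does not show that a factor binds there. Promoter methylation was not measured.

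Among the 8 genes, Cxcl2 and Cxcl12 were higher in CKO cells and none was called lower (edgeR, adjusted p under 0.05 over all 15210 tested genes). Over all tested genes 7.61% were called, 4.85% higher and 2.75% lower. The share called higher was 6.48% in DESeq2, 3.73% in limma-voom, 7.88% without CKO A, 3.8% without CKO B, 2.31% without WT A and 1.56% without WT B, and the members called in those fits numbered 3, 2, 4, 2, 2 and 1. Of the 8, 7 passed the filter on low counts, and Ccl8 did not. An unadjusted p under 0.05 with a higher level was found for 4 of them and for 13.1% of all tested genes. All 7 had a fitted log2 change above 0, as did 49.1% of all tested genes, and their median was 0.79 against -0.01 over all tested genes. In 6 of the 7 both CKO libraries lay above both WT libraries, against 27.7% of all tested genes (29.3% had both CKO libraries below both WT libraries), and in Cxcl1 the genotypes overlapped. These shares describe genes chosen together, and they carry no test.

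**Figure D1:**
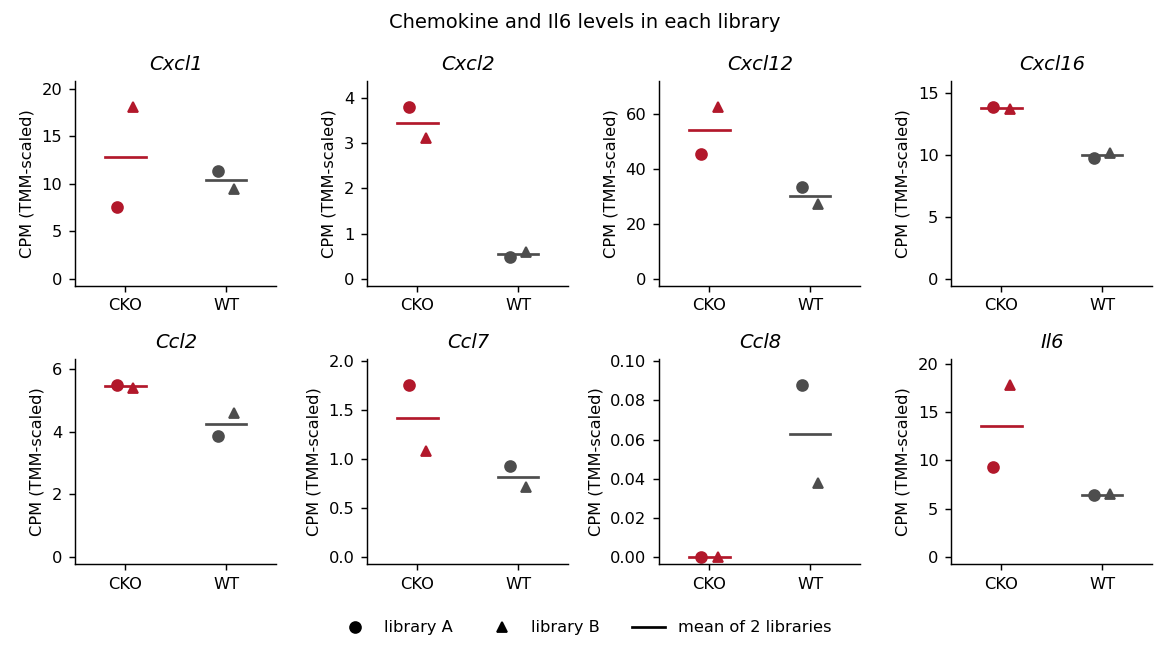
TMM-scaled CPM of each gene in the CKO libraries (red) and the WT libraries (grey), with circles for library A, triangles for library B and a bar for the mean of 2 libraries. Axes start near 0 and differ between panels. Cxcl2 lies at 3.11 to 3.81 CPM in CKO and 0.483 to 0.604 CPM in WT, and Cxcl1 is spread from 7.54 to 18.1 CPM within CKO.

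Cxcl2 (ENSMUSG00000058427, chr5:90903871-90905938, GRCm38) encodes a chemokine that draws neutrophils. It had 100 and 72 reads in CKO A and CKO B, against 11 and 16 reads in WT A and WT B. Scaled, these were 3.81 and 3.11 CPM in CKO and 0.483 and 0.604 CPM in WT. Both CKO libraries stood far above both WT libraries, and within each genotype the libraries differed by less than 1.25-fold. The fitted change was 6.29-fold (95% interval 3.47 to 11.4, log2 change 2.65 ± 0.37 (SE), n = 2 per genotype, edgeR adjusted p = 0.00792). The fold lay between 5.74 and 7.13 when any 1 library was left out, and Cxcl2 was called each time. Its longest stretch identical to a Cxcl3 transcript is 157 bases, so the counting of reads from that stretch is uncertain. Cxcl3 itself had 0 and 1 reads in CKO A and CKO B and 1 and 0 reads in WT A and WT B.

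Cxcl1 (ENSMUSG00000029380, chr5:90891241-90893115), a chemokine that acts on the same receptor, lies beside Cxcl2, and the genes together span 14698 bases. It had 198 and 419 reads in CKO A and CKO B, or 7.54 and 18.1 CPM, against 258 and 249 reads in WT A and WT B, or 11.3 and 9.39 CPM. CKO A was the lowest and CKO B the highest of the 4 libraries, so the genotypes overlapped. The fitted fold was 1.23 with an interval of 0.574 to 2.65 (log2 change 0.30 ± 0.43, edgeR adjusted p = 0.717), which does not exclude a change in either direction. Leaving out CKO B gave a log2 change of -0.45 (edgeR adjusted p = 0.261), whereas leaving out CKO A gave 0.83 (adjusted p = 0.0167). Cxcl1 and Cxcl2 share no identical run over 23 bases.

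For each 100 reads of Cxcl1 there were 50.5 and 17.2 reads of Cxcl2 in CKO A and CKO B, against 4.26 and 6.43 in WT A and WT B. This ratio was chosen after the values were seen. An exact permutation test, two-sided, gave p = 0.333, the smallest p that 2 libraries against 2 allow. Of the other chemokine genes of the cluster on chromosome 5, Cxcl3, Cxcl5 and Ppbp had at most 10 reads in any library. Pf4, a chemokine of platelets and macrophages, had 29 and 24 reads in CKO A and CKO B, against 6 and 16 in WT A and WT B, and did not pass (edgeR adjusted p = 0.19). Cxcl15, a lung epithelial chemokine, had 133 and 59 reads in CKO and 44 and 139 in WT, with overlapping genotypes.

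Il6 (ENSMUSG00000025746, chr5:30013114-30019981) had 246 and 413 reads in CKO A and CKO B, against 146 and 173 reads in WT A and WT B. Its levels were 9.36 and 17.8 CPM in CKO and 6.41 and 6.53 CPM in WT. The WT libraries nearly coincided, both CKO libraries lay above them, and CKO B was 1.90-fold above CKO A. The fitted fold of 2.10 (1.27 to 3.47, log2 change 1.07 ± 0.30) did not pass in edgeR (adjusted p = 0.0851). DESeq2 called it (adjusted p = 0.0187), and for Il6 the authors' deposited table lists 1.11 on the log2 scale at an adjusted p of 0.0288. The edgeR fold was 2.81 when CKO A was left out (adjusted p = 0.000484) and 1.46 when CKO B was left out (adjusted p = 0.169).

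The 3 CC chemokines lie within 81229 bases on chromosome 11. Ccl2 (ENSMUSG00000035385, chr11:82035571-82037453), the main monocyte attractant, had 144 and 125 reads in CKO A and CKO B, against 88 and 122 reads in WT A and WT B. These are 5.48 and 5.39 CPM in CKO and 3.86 and 4.60 CPM in WT. The genotypes did not overlap, but the gap was about the size of the spread within WT, and the fold of 1.28 (0.890 to 1.85) did not pass (edgeR adjusted p = 0.372). Ccl7 (ENSMUSG00000035373, chr11:82045712-82047525), a relative that shares the receptor Ccr2, had 46 and 25 reads in CKO A and CKO B, against 21 and 19 reads in WT A and WT B. These are 1.75 and 1.08 CPM in CKO and 0.922 and 0.717 CPM in WT, with CKO A well above the other 3 libraries and CKO B just above WT. The fold of 1.73 had an interval of 0.838 to 3.59 (edgeR adjusted p = 0.322), which does not exclude a change in either direction. Ccl8 (ENSMUSG00000009185, chr11:82115185-82116799) had 0 reads in both CKO libraries, against 2 and 1 reads in WT A and WT B. A count of 0 allows up to 3 reads, or 0.114 CPM in CKO A and 0.129 CPM in CKO B, so Ccl8 was near the limit of detection in both genotypes and no fold is given. That floor covers counting error only.

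Between Ccl7 and Ccl8 lie Ccl11, which encodes the eosinophil attractant eotaxin, and Ccl12. Ccl11 had 293 and 410 reads in CKO A and CKO B, against 144 and 178 reads in WT A and WT B, and was 2.21-fold higher (edgeR adjusted p = 0.03). Its call was lost without CKO B (adjusted p = 0.0571), without WT A (0.106) and without WT B (0.134). Ccl12 had 3 and 6 reads in CKO and 0 in both WT libraries, too few to be tested. The longest run that Ccl2 shares with Ccl7 is 23 bases and with Ccl11 20 bases. Ccl2 overlaps the gene model Gm17268 on the opposite strand, and whether strand was used in counting is not given in the sources used here.

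Cxcl12 (ENSMUSG00000061353, chr6:117168535-117181367) was the most abundant of the 8 by reads, with 1199 and 1453 in CKO A and CKO B, against 760 and 722 in WT A and WT B. Its levels were 45.6 and 62.7 CPM in CKO and 33.4 and 27.2 CPM in WT. Both CKO libraries exceeded both WT libraries, and CKO A lay closer to WT than CKO B did. The fitted fold was 1.79 (1.34 to 2.39, log2 change 0.84 ± 0.18, edgeR adjusted p = 0.035). The call was lost without WT B (1.63-fold, adjusted p = 0.19) and, by a narrow margin, with a minimum mean of 1 CPM (adjusted p = 0.0506). Within the shared column number, without WT A, the fold was 2.00 (adjusted p = 0.0404). Its receptor Cxcr4 had 361 and 231 reads in CKO A and CKO B and 231 and 239 reads in WT A and WT B, and did not pass (adjusted p = 0.388). Ackr3, a scavenging receptor of Cxcl12, did not pass either (log2 change -0.11, adjusted p = 0.718).

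Cxcl16 (ENSMUSG00000018920, chr11:70453983-70459984) encodes a ligand of Cxcr6, and its replicates were close. It had 365 and 318 reads in CKO A and CKO B, or 13.9 and 13.7 CPM, against 223 and 269 reads in WT A and WT B, or 9.79 and 10.1 CPM. The libraries of a genotype differed by less than 1.04-fold and the genotypes did not overlap. The fold of 1.38 (1.08 to 1.78, log2 change 0.47 ± 0.16) had an unadjusted p of 0.0173 and did not pass over all genes (edgeR adjusted p = 0.111). Cxcl16 overlaps Zmynd15 on the opposite strand, which had 98 and 86 reads in CKO A and CKO B and 68 and 74 reads in WT A and WT B (adjusted p = 0.432). Of the proteases that shed or clip chemokines, 1 of 7 was higher, the cathepsin gene Ctsk (1.63-fold, adjusted p = 0.011), and its call was lost without WT A (adjusted p = 0.0703) and without WT B (0.0839). The gelatinase gene Mmp9 (3.48-fold, adjusted p = 0.0875) and Adam17, a sheddase gene (1.18-fold, 0.226), did not pass. Mmp9 was called without CKO A (log2 change 2.29, adjusted p = 0.0343), and without CKO B its log2 change was 1.151 (0.403), against 1.80 with all 4 libraries.

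**Figure D2:**
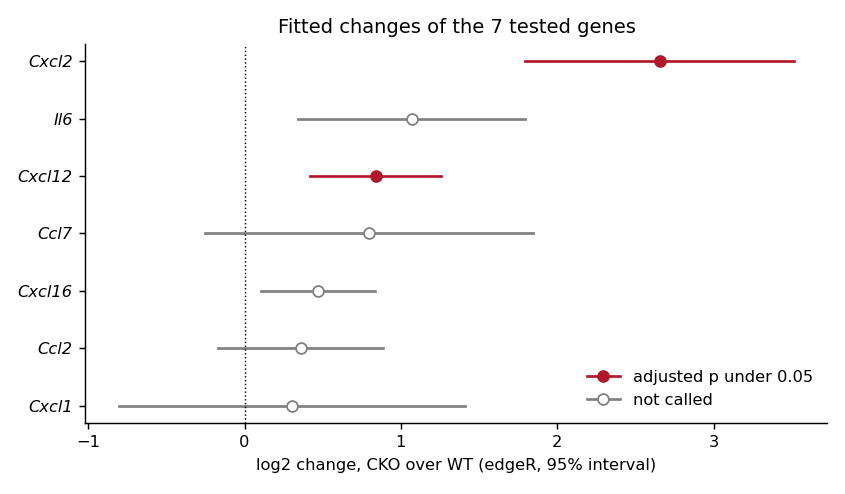
Log2 change of CKO over WT for the 7 tested genes with 95% intervals from the edgeR fit; filled red points passed at an adjusted p under 0.05. The intervals of Ccl2, Ccl7 and Cxcl1 cross 0, and those of Cxcl16 and Il6 do not although neither passed over all genes.

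To compare levels between genes, CPM was divided by the merged exon length of each gene in kilobases. Cxcl1 averaged 6.83, Cxcl12 6.62, Il6 5.60, Ccl2 4.78, Cxcl16 4.57, Ccl7 1.77 and Cxcl2 1.67 CPM per kilobase in CKO. In WT the means were 5.53 for Cxcl1, 3.72 for Ccl2, 3.71 for Cxcl12, 3.30 for Cxcl16, 2.66 for Il6, 1.02 for Ccl7 and 0.263 for Cxcl2. Cxcl2 stood last among the tested genes in WT, while in CKO its libraries lay inside the range of those of Ccl7 (2.19 and 1.35). In WT, Cxcl12 (4.08 and 3.33) overlapped both Ccl2 (3.40 and 4.04) and Cxcl16 (3.24 and 3.36), while both Ccl2 libraries lay just above both Cxcl16 libraries. In CKO, Cxcl1 (4.02 and 9.64), Cxcl12 (5.58 and 7.67) and Il6 (3.86 and 7.34) overlapped each other. Ccl2 (4.82 and 4.74) and Cxcl16 (4.60 and 4.54) lay within the ranges of Cxcl1 and Il6 and below both Cxcl12 libraries. Merged exons include those of all annotated isoforms, 8176 bases for Cxcl12, so these levels understate genes with several isoforms. For Cxcl1 and Cxcl2 they form 1 block of 1875 and 2068 bases that covers the whole gene, against 801 bases for Ccl7. Before division by length, Cxcl2 (3.81 and 3.11 CPM in CKO A and CKO B) lay above Ccl7 (1.75 and 1.08 CPM).

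The CKO libraries also differed from each other. Cxcl1, Cxcl12 and Il6 were higher in CKO B, which held the lower share of Dnmt1 and no Y-linked reads. Cxcl2, Ccl7, Ccl2 and Cxcl16 were higher in CKO A, the last pair by less than 1.02-fold. With 1 library of each kind, Dnmt1 level, sex and animal cannot be told apart.

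**Figure D3:**
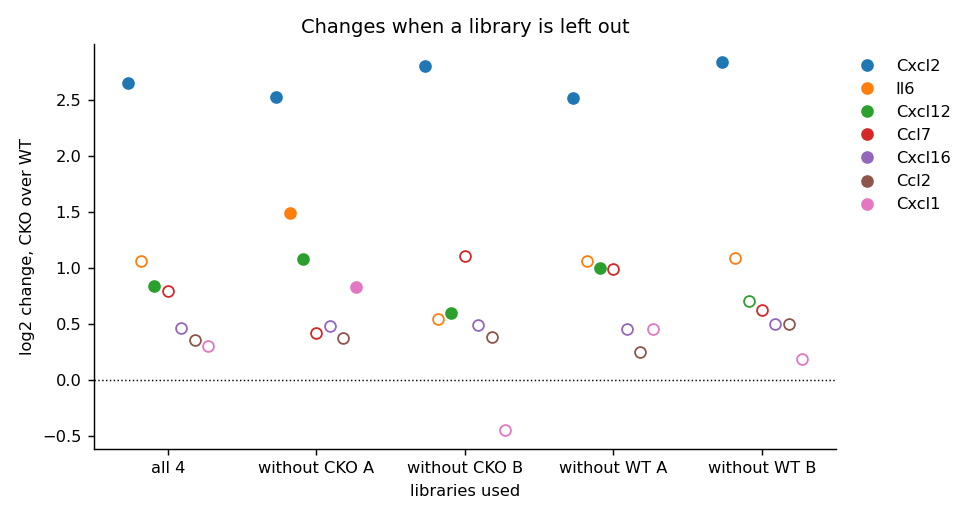
Log2 change of CKO over WT (edgeR) for each tested gene with all 4 libraries and with each library left out; filled points passed at an adjusted p under 0.05. Cxcl2 stays between 2.52 and 2.83, while Cxcl1 falls at -0.45 without CKO B and at 0.83 without CKO A.

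Other chemokine genes that were tested also tended to higher levels in CKO. Of 29 other chemokines 15 were tested, and 5 were called higher and 0 lower. A chemokine near 0 in WT passed the filter through its CKO reads alone, so the tested genes lean to rises. Among CXC and CX3C chemokines 3 of 7 tested were higher, with a list median log2 change of 1.27. Cx3cl1, a membrane-bound chemokine, had 137 and 165 reads in CKO A and CKO B, against 32 and 37 in WT A and WT B, and was 4.39-fold higher (edgeR adjusted p = 0.00702). Cxcl14 was 2.19-fold higher (adjusted p = 0.00652), and the interferon-inducible Cxcl10 was 2.32-fold higher (adjusted p = 0.0475). Cx3cl1 and Cxcl14 were called whichever library was left out. Cxcl10 was called only without CKO A, and not without CKO B (adjusted p = 0.0996), WT A (0.164) or WT B (0.204).

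Of 8 tested CC chemokines 2 were higher, with a median of 1.89. They were Ccl11 and Ccl3, a macrophage inflammatory protein gene with 29 and 27 reads in CKO and 7 and 5 in WT (4.55-fold, adjusted p = 0.0475), whose call was lost whichever library was left out (adjusted p from 0.132 to 0.286). Ccl5 had 101 and 142 reads in CKO A and CKO B, against 15 and 1 in WT A and WT B, and missed the threshold (adjusted p = 0.0569). Ccl5 was called without WT A (edgeR adjusted p = 0.000666) and without WT B (0.0262), but not without CKO A (0.255) or CKO B (0.259), and its log2 change lay between 2.92 without WT B and 6.88 without WT A. In limma-voom Ccl5 passed (adjusted p = 0.0408), while Cxcl10 (0.0911), Ccl11 (0.062) and Ccl3 (0.0649) did not, and Ccl3 did not pass in DESeq2 (0.0893).

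Most signalling chemokine receptor genes had few reads in the sorted cells. Of 18 such receptors 4 passed the filter on low counts, among them Cxcr4 at 9.02 to 13.7 CPM, and Ccr7, a receptor of dendritic cells and T cells, was higher. It had 95 and 75 reads in CKO A and CKO B, against 23 and 26 in WT A and WT B (3.43-fold, edgeR adjusted p = 0.0189), and lost its call without WT A (adjusted p = 0.0686) and without WT B (0.106). Cx3cr1 (adjusted p = 0.248) and Ccr2 (adjusted p = 0.284), receptors of monocytes and macrophages, did not pass. Cxcr2 had 5 reads in CKO A and 0 in the other 3 libraries. Of 3 tested atypical chemokine receptors 0 passed in edgeR, DESeq2 or limma-voom and 1, Ackr2, had an unadjusted p under 0.05 (edgeR adjusted p = 0.174, against 0.518 for Ccrl2). 

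Other genes of the Il6 family were not called. Of the other Il6 family cytokines 3 were tested, Lif (1.44-fold, edgeR adjusted p = 0.189), Clcf1 (1.55-fold, 0.239) and Ctf1 (1.06-fold, 0.902). With all 4 libraries and the filter on low counts 0 passed in edgeR, DESeq2 or limma-voom, and 1 had an unadjusted p under 0.05. Clcf1 was called without CKO A (log2 change 1.02, edgeR adjusted p = 0.0142) and with no filter (0.04), and its log2 change was 0.17 without CKO B. Of 14 Il6 family receptors and signal transducers 0 passed in edgeR, in DESeq2 or in limma-voom, and 5 had an unadjusted p under 0.05. Without CKO A 3 were called higher and 1 lower. The lowest p belonged to Lifr (log2 change -0.41, unadjusted p = 0.0099, adjusted p = 0.0823), Il11ra1 (0.33, 0.111) and Il6ra (0.61, 0.148).

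Several inducers of these chemokines were higher, while no NF-kappaB subunit was called. Among the 15 tested upstream cytokines and receptors, 5 rose and 0 fell, against 4.85% called higher over all tested genes. All 15 had a fitted change above 0 (median 0.47 on the log2 scale), as did 49.1% of all tested genes. Tnf and Il1a, low in WT, passed the filter on low counts through their CKO reads, so this list leans to rises. Tnf had 99 and 52 reads in CKO A and CKO B, against 5 and 7 in WT A and WT B (12.2-fold, edgeR adjusted p = 0.0068). Il1a had 63 and 22 reads in CKO, against 3 and 4 in WT (11.5-fold, adjusted p = 0.021), and Il1b was 3.43-fold higher (adjusted p = 0.0245). Il1a had a log2 change of 2.73 without CKO A and 4.04 without CKO B, against 3.52 with all 4 libraries. It lost its call without CKO A (edgeR adjusted p = 0.136), WT A (0.064) and WT B (0.0977) and in limma-voom (0.0654), and Il1b without WT A (0.111) and WT B (0.0725). The receptors Tlr2 (2.06-fold) and Tnfrsf1b (1.47-fold) also passed. Tnf was called whichever library was left out, but only 1 gene of the list passed when either WT library was left out, 3 when CKO A was left out and 2 in limma-voom.

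Of 15 NF-kappaB subunits and kinases 0 passed in edgeR, DESeq2 or limma-voom, 2 had an unadjusted p under 0.05, and 1 was called without CKO A. The kinase genes Ikbkb (log2 change -0.41, adjusted p = 0.0755), Chuk (0.34, 0.132) and Ikbkg (-0.32, 0.213) had the lowest p. Of 13 NF-kappaB inhibitors and feedback targets 0 passed in edgeR or limma-voom, 1 in DESeq2, and in edgeR 5 without CKO A and 1 without CKO B. An unadjusted p under 0.05 was found for 7 of them. The lowest p were those of Bcl3 (1.45-fold, adjusted p = 0.0702), Nfkbib (1.39-fold, 0.0892) and Tnip1 (1.30-fold, 0.103). Of 12 C/EBP and AP-1 factors 2 were higher, 5 without CKO A, 1 without CKO B and 4 in DESeq2. Cebpb, which drives Il6 and other secretory genes, lay at 157 and 190 CPM in CKO A and CKO B, against 86.6 and 71.3 CPM in WT A and WT B (2.19-fold, adjusted p = 0.00583). Atf3 was 1.87-fold higher (adjusted p = 0.0231) and lost its call without CKO B (adjusted p = 0.075) and without WT A (0.0563), and Junb did not pass (adjusted p = 0.0667). Of 10 mRNA decay factors, several of which destabilise chemokine transcripts, 0 passed in edgeR or limma-voom, 2 in DESeq2 (1 higher, 1 lower), and 4 had an unadjusted p under 0.05. Nearest to the threshold were Zfp36l2 (1.48-fold, adjusted p = 0.0503), Tia1 (log2 change -0.43, 0.0599) and Zc3h12a (1.24-fold, 0.194).

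**Figure D4:**
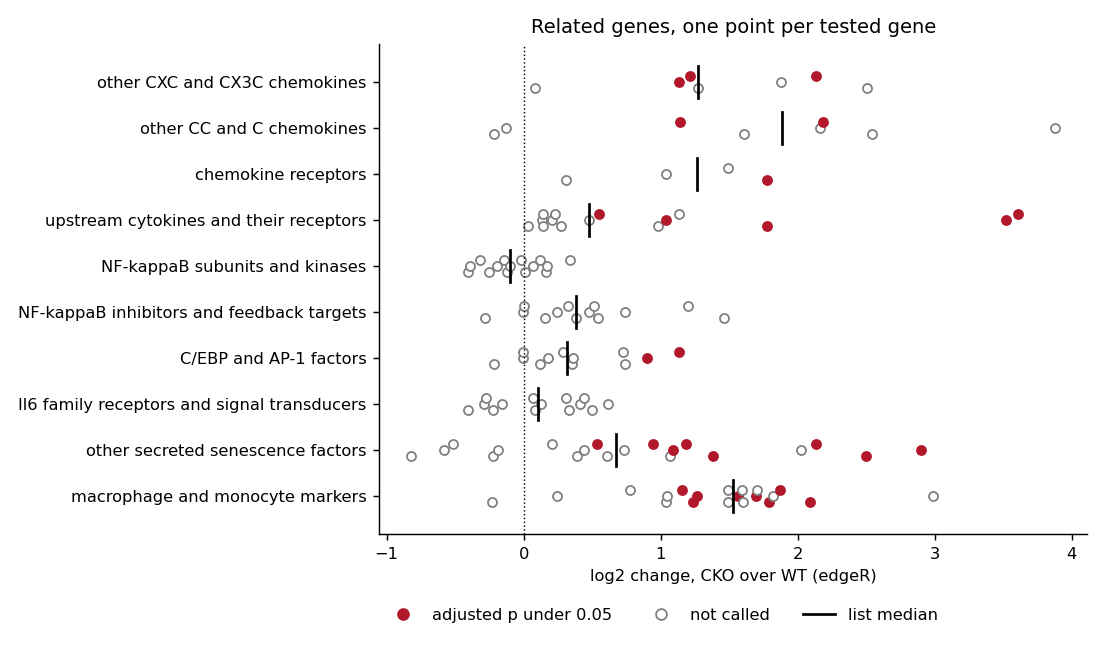
Log2 change of CKO over WT (edgeR) for every tested gene of 10 lists, with filled red points for an adjusted p under 0.05 and a black bar for the list median. The median is -0.10 for NF-kappaB subunits and kinases, 0.47 for upstream cytokines and their receptors and 1.53 for macrophage and monocyte markers.

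Of 20 tested other secreted senescence factors 8 were higher and 0 lower. Gdf15, a stress cytokine, was 7.48-fold higher (edgeR adjusted p = 0.00382). Igfbp7, a growth factor binding protein gene, was 2.61-fold higher and the protease inhibitor gene Timp1 2.27-fold higher (adjusted p = 0.00441 each). Only 4 of the list passed when either WT library was left out, while these 3 genes were called whichever library was left out.

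Among markers of cells outside the mesenchyme, the macrophage and erythroid sums separated the genotypes, and the other sums overlapped. Summed levels of 22 macrophage and monocyte markers were 117 and 88.1 CPM in CKO A and CKO B, against 46.6 and 60.6 CPM in WT A and WT B. Of 20 tested, 8 were higher and 0 lower, among them Plac8 (2.23-fold), Cd74 (2.96-fold) and Fcer1g (3.46-fold), and 2 passed when either WT library was left out. Over all tested genes 4.85% were called higher. Of the 20 markers, 19 had a fitted change above 0. Those near 0 in WT, such as Marco (5 and 3 reads in WT A and WT B), passed the filter through their CKO reads. Cd68 lay below WT in both CKO libraries (6.59 and 7.33 CPM against 7.82 and 8.49 CPM). Lyz2, the largest part of the CKO A sum, overlapped, at 31.4 and 10.6 CPM in CKO and 15.1 and 20.5 CPM in WT. Macrophages and monocytes are themselves known sources of Cxcl2, Il6, Tnf and Il1b. In sorted bulk RNA more cells of a type and more RNA per cell cannot be told apart, and the part of these cells in the chemokine changes was not tested. Ptprc, the pan-leukocyte marker, had 65 and 44 reads in CKO A and CKO B, against 21 and 43 in WT A and WT B (adjusted p = 0.28).

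Neutrophil markers stayed near the limit of detection, at 1.90 and 1.21 CPM summed in CKO A and CKO B and 1.01 and 2.38 CPM in WT A and WT B. Of 3 tested 0 passed in edgeR, DESeq2 or limma-voom and 1, Ngp, had an unadjusted p under 0.05. Ngp was lower in CKO, with 4 and 2 reads in CKO A and CKO B, against 11 and 12 in WT A and WT B. Elane, a neutrophil protease gene, was at 0 reads in both CKO libraries and at 1 and 0 in WT A and WT B. Lymphocyte markers summed to 6.09 and 4.57 CPM in CKO and 4.83 and 4.68 CPM in WT, and of the 3 tested 0 passed in edgeR, DESeq2 or limma-voom or at an unadjusted p under 0.05. Endothelial markers summed to 306 and 204 CPM in CKO and 182 and 226 CPM in WT, with Plvap of 12 called (1.96-fold, edgeR adjusted p = 0.00817). Epithelial markers summed to 165 and 89.1 CPM in CKO and 66.3 and 204 CPM in WT, and mesothelial markers to 20.7 and 7.16 CPM in CKO and 3.42 and 11.5 CPM in WT, with 0 calls in either list in edgeR, DESeq2 or limma-voom. An unadjusted p under 0.05 was found for 1 epithelial and 0 mesothelial markers, and 1 epithelial marker was called without WT B. Globin and other erythroid genes summed to 14.3 and 7.64 CPM in CKO and 23.4 and 30.5 CPM in WT, and 2 of 5 tested, Hba-a1 and Hba-a2, were lower, with 4 called without CKO A, 0 without CKO B, 1 without WT A and 0 without WT B. Hba-a1 and Hba-a2 are near-identical copies that can share reads.

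Mesenchymal markers were far more abundant. The 14 myofibroblast and smooth muscle markers summed to 52043 and 47904 CPM in CKO A and CKO B, against 45429 and 46504 CPM in WT A and WT B, and 2 were higher, Cnn1 (1.47-fold) and Enpp2 (1.40-fold), of which 1 was left without CKO B and 0 without WT A or WT B. DESeq2 called 2 higher and 3 lower. Eln made up most of each sum, at 36230 and 35532 CPM in CKO and 27965 and 30122 CPM in WT. Of the 14, 8 had a fitted change above 0. Pdgfra (0.66-fold, edgeR adjusted p = 0.0526), Tgfbi (0.66-fold, 0.139) and Myh11 (0.78-fold, 0.244) lay below WT in both CKO libraries. Pdgfrb, the gene of the reporter, lay at 374 and 317 CPM in CKO and 507 and 477 CPM in WT (edgeR adjusted p = 0.0546). Of 12 adventitial fibroblast markers 5 were higher, among them Pi16 (2.22-fold), Igfbp6 (2.18-fold) and Serpinf1 (2.60-fold). Over all tested genes 4.85% were called higher. Of these 12 markers, 11 had a fitted change above 0. Cd34 (0.88-fold), Col14a1 (1.11-fold) and Dpp4 (1.24-fold) overlapped between the genotypes. Postn alone of 9 pericyte markers was higher (1.91-fold), and 6 of the 9 had a fitted change above 0. Higd1b (0.43-fold) and Trpc6 (0.86-fold) lay below WT in both CKO libraries and Rgs5 (0.83-fold) overlapped, none of them called. When either WT library was left out, 2 adventitial and 0 pericyte markers passed. Adventitial fibroblasts are a known source of Cxcl12 and Ccl11, and their part in these changes was not tested.

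Cell isolation can itself induce Cxcl1, Cxcl2, Il6 and immediate early genes. The 24 dissociation response genes summed to 5861 and 7874 CPM in CKO A and CKO B, against 5772 and 4738 CPM in WT A and WT B, with CKO A close to WT A. Of the 24, 20 had a fitted change above 0. Fos (1.13-fold), Egr1 (1.02-fold), Hspa1a (0.80-fold) and Hspa1b (0.83-fold) were among those that overlapped between the genotypes. Over all tested genes 4.85% were called higher. Of the 24 genes 7 were higher and 0 lower, among them Ier3 (2.03-fold), Klf4 (1.79-fold), Ppp1r15a (1.78-fold) and Atf3, also counted among the C/EBP and AP-1 factors. The count was 13 without CKO A, 4 without CKO B, 4 without WT A and 3 without WT B. CKO B, the library with the highest sum, was also that with the highest Il6 and Cxcl1, whereas Cxcl2 was highest in CKO A. The part of isolation in these values was not tested.

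The genes whose levels most resembled those of the called members over the 4 libraries were found by Euclidean distance of mean-centred log2 CPM, computed with a prior count of 2 that shrinks differences at low counts. For Cxcl2 they were Plxdc1 (distance 0.28), Zfp648 (0.32) and Nos1 (0.35). For Cxcl12 they were Rbpms2 (0.040), Adgrb2 (0.051) and Zfp365 (0.064). Zfp648 rests on 12 and 10 reads in CKO A and CKO B, against 0 in both WT libraries.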

How the data were processed

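RNA of sorted cells from 2 CKO and 2 WT lungs was sequenced, and the counts tested here are the authors' deposited reads per gene. Per the file headers the authors also deposited a gene length and a log2 fold change, p-value and adjusted p-value of mutant against control, quoted only where named as theirs. The table holds 4 further columns of per-library values, not used here. Per the submitters' processing notes, the tools were edgeR 3.28.1, STAR, Trimmomatic 0.36, cutadapt 2.5 and FastQC 0.11.8, on build GRCm38.p6. The counting tool is not given in the sources used here. Columns named Control and Mutant were read as WT and CKO.

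The test was edgeR 4.0.16 in R 4.3.3 (filterByExpr with a minimum count of 10, TMM, glmQLFit and glmQLFTest, robust), with Benjamini-Hochberg adjusted p-values over 15210 genes and a threshold of 0.05. Standard errors are the log2 change over the square root of F. Alternatives were DESeq2 1.42.0, limma-voom (limma 3.58.1), other scalings, other filters and leaving out each library, where the lone library of a genotype is assumed to vary like the pair of the other. Scripts were tested on simulated data. Libraries of a genotype differed beyond sampling noise (chi-square per degree of freedom 32.4 for CKO and 18.1 for WT). Gene positions and exon lengths came from GENCODE M21. The members, the 24 gene lists and the rule for named genes (the lowest p, up to 3 per list) were chosen with earlier results of these data known. Genes of the same chromosomal clusters, overlapping genes, Ptprc, Elane, Cxcr2, Cxcr4, Tlr2 and Tnfrsf1b were named outside that rule, after their values were seen.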

Additional observations from a re-analysis of the deposited data

How the results depend on the processing

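Depth limits Ccl8, which had 3 reads in all. Between 339 and 1842 genes were called when 1 library was left out, against 1157 with all 4, and 2459 with no filter on low counts. Between 1 and 4 of the 8 members were called when 1 library was left out, 1 with a minimum mean of 1 CPM and 1 at an adjusted p under 0.01. Cxcl12 had a log2 change of 0.85 with the minimum of 1 CPM, not called (adjusted p = 0.0506). Il6 passed in DESeq2 (log2 change 1.08, adjusted p = 0.0187) and in edgeR with no filter (1.11, adjusted p = 8.85e-06). Without the filter the edgeR adjusted p of Cxcl12 also fell, from 0.035 to 3.32e-08, at a similar log2 change (0.87 against 0.84). The low p-values of that fit therefore do not stand for larger changes. Leaving out 1 library gave log2 changes from 0.60 to 1.08 for Cxcl12, from 0.54 to 1.49 for Il6 and from -0.45 to 0.83 for Cxcl1, which reversed without CKO B. Those of Ctf1 ran from -0.082 (without WT A) to 0.30, with -0.033 without CKO B, and those of Ackr3 from -0.33 to 0.16 (without WT B), against 0.083 and -0.11 with all 4. For these, the cause was not tested. Cxcl2 was called in every setting run. The motif count was 3 in both forms. No paired analysis was possible because the count columns carry no replicate number.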
